A study of Mus musculus with 8 samples.

Results

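The response of RAW264.7 cells to 2 hours of contact with Lactobacillus acidophilus or Bacillus clausii was read from 2 of the 8 arrays of the study, those whose titles give a time of 2 h. RAW264.7 is a mouse macrophage-like cell line of BALB/c origin. Cells received L. acidophilus MTCC-10307 or B. clausii MTCC-8326, both described as potential probiotics, at 100 bacteria per cell for 1, 2, 4 or 6 h, or were left untreated for the same time. On each two-colour array RNA of treated cells carried Cy5 (red) and RNA of the time-matched untreated cells Cy3 (green), and the dyes were never exchanged. Each labelled RNA was a pool of 3 cultures mixed in equal parts, so each bacterium and time has 1 array and no array has a replicate. No source used here says whether the arrays of both bacteria shared an untreated pool.

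The 2 arrays held 41174 probes each. Between 46.2% and 51.5% of them were well above background in a channel, no spot was saturated, and replicate spots of a probe had a median SD of 0.10 log2 on both arrays. Of 14936 genes with a kept probe, 14895 had a ratio on both 2 h arrays and were tested, and 12400 were well above background in both channels of both. Macrophage markers matched the labelled cell line, since 14 of 15 were detected in both channels of both arrays and Cybb was not. Of the markers of other cells, Cd3e and Cd4 (T cell) and Mpo (neutrophil) were among those detected in both channels of both arrays, while no NK cell marker and neither S100a8 nor S100a9 was. Each bacterium had its own slide and each time its own place on it, so these cannot be told apart.

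Macrophages recognise bacterial cell walls and nucleic acids through Toll-like receptors, whose adaptors release the transcription factor NF-kB. NF-kB turns on chemokine genes, which call neutrophils and monocytes, cytokine genes such as Tnf, and its own inhibitors, and the first wave of these mRNAs is short-lived. Activated macrophages also raise glucose uptake and glycolysis, in part through the hypoxia-inducible factor HIF-1, and a larger secretory load can engage the unfolded protein response of the endoplasmic reticulum (ER).

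Chemokine and hypoxia-response genes held the 5 highest means at 2 h, and most changes were small. All values below are log2 ratios of treated to untreated cells unless another quantity is named, so that 1 is 2-fold. In a limma fit to all 8 arrays with terms for time and bacterium, 2177 genes (14.6% of those tested) were higher and 1843 (12.4%) lower in treated cells at 2 h, as the mean of both bacteria, at a Benjamini-Hochberg adjusted p under 0.05. Together they were 27% of the genes tested. Of these 4020 genes, 3619 had a mean below 0.5 in size, with a median size of 0.29. The sign was the same on both arrays in 4012. The test favours genes whose 2 readings agree, so that count does not measure agreement between the bacteria. Of the 4020 genes 12 (0.0806% of those tested) were at least 2-fold higher and 0 were 2-fold lower in limma. There 5974 genes of any size had an unadjusted p under 0.05. A gene could enter the test through detection in treated cells alone. Among 10324 genes detected in both channels of all 8 arrays, 1932 were higher and 1892 lower. List members called measured below are those tested, and their counts are read against the 14.6% higher and 12.4% lower of all genes tested. These tests take their spread from how far both bacteria differ at a given time, on 3 residual degrees of freedom. It holds neither the scatter between cultures nor any noise of an untreated pool common to both arrays, and a dye effect on single genes and a response to both bacteria cannot be told apart. The count was 391 without the L. acidophilus and 404 without the B. clausii array of 2 h. With median centring in place of loess the median of all genes moved from 0.02 to -0.14 and the split became 505 higher and 4833 lower. Changes are thus relative to the typical gene of similar brightness, and list values under median centring below are read against that shift.

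**Figure D1:**
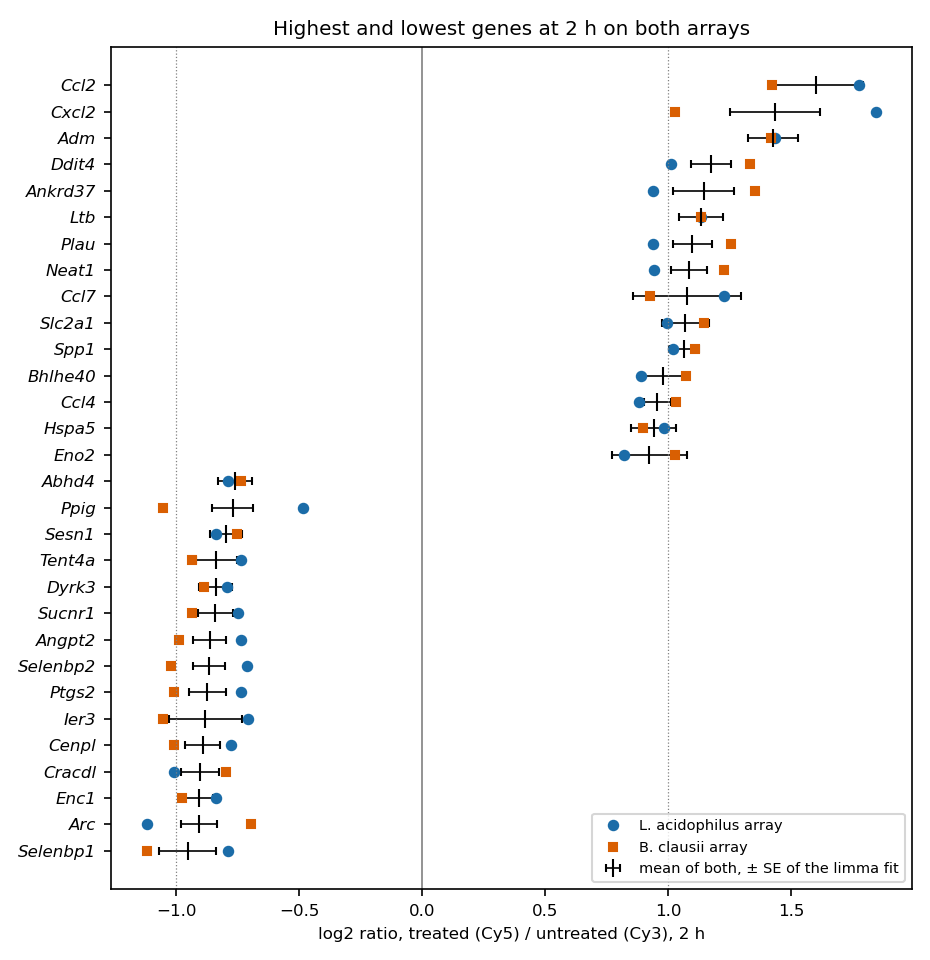
Log2 ratio of treated to untreated cells at 2 h (x axis) for the 15 highest and 15 lowest genes of the mean response that passed the test, 1 gene per line. Circles are the L. acidophilus array, squares the B. clausii array, and black bars the mean with the SE of the limma fit. Ccl2 (1.60), Cxcl2 (1.43) and Adm (1.43) stand highest and Selenbp1 (-0.95) lowest. The same sign on both arrays was a condition for choosing these 30 genes and is no result.

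Ccl2 and Cxcl2, both chemokine genes, had the highest means of all genes. Ccl2, which encodes a chemokine for monocytes, gave a normalized signal of 9406 in untreated and 32220 in treated cells on the L. acidophilus array, and of 8369 and 22400 on the B. clausii array. These are ratios of 1.78 and 1.42, high on both arrays, with an SD over the 10 spots of the probe of 0.10 and 0.21. The mean was 1.60 ± 0.19 (SE, 3.03-fold, limma adjusted p = 0.00108), and it ranged from 1.41 to 1.75 over 25 alternatives and passed in all of them but 1, the fit without the B. clausii array of 2 h (1.45, adjusted p = 0.05). Cxcl2, a neutrophil chemokine gene, had signals of 305.9 and 1096 with L. acidophilus and of 294.9 and 600.8 with B. clausii. Its ratios of 1.84 and 1.03 had the same sign but lay further apart than those of Ccl2, and their mean was 1.43 ± 0.18 (2.70-fold, adjusted p = 0.00141). Cxcl2 passed in 23 of 25 alternatives and did not with the local backgrounds as deposited (1.05, adjusted p = 0.225) or with the 2 h L. acidophilus array left out (1.28, adjusted p = 0.0607).

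Ccl7, another monocyte chemokine gene, stood at 1.23 and 0.92 (mean 1.07 ± 0.22, limma adjusted p = 0.00892) and passed in 18 of 25 alternatives. Without either 2 h array it no longer passed (1.17 and 0.98), nor with the processed signals of the scanner software (1.42) or the local backgrounds as deposited (0.70). Ccl4 and Ccl3 encode inflammatory chemokines. Ccl4 read 0.88 with L. acidophilus and 1.03 with B. clausii (0.95 ± 0.06, adjusted p = 0.000232), and its call held in all 25 alternatives. Ccl3 read 0.84 and 0.44 (0.64 ± 0.10, adjusted p = 0.00355).

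Of 21 chemokine genes listed, 11 were measured, and 8 of these rose, 0 fell and 3 did not pass, against 14.6% higher among all genes tested (6 rose and 1 fell under median centring). Their median was 0.47, against 0.02 over all genes tested. Ccl9 (0.48 with L. acidophilus and 0.47 with B. clausii), Cxcl10 (0.29 and 0.37), which is induced by interferons, and Cxcl14 (0.26 and 0.35) completed the rises. Ccl5 had a mean of -0.12 ± 0.06, Ccl6 of 0.06 ± 0.06 and Cxcl16 of 0.03 ± 0.06, and for these 3 the test was not passed. The measured list thus held genes at 3-fold and genes near no difference.

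Among 14 measured cytokine and growth factor genes 5 rose, 1 fell and 8 did not pass, with a median of 0.18 that turned to -0.02 under median centring. Ltb, which encodes lymphotoxin beta, rose most, with 1.13 on both arrays (limma adjusted p = 0.000341). Hbegf (0.68 with L. acidophilus and 0.50 with B. clausii), an epidermal growth factor receptor ligand, and Vegfa (0.47 and 0.51), which drives vessel growth, followed. Il18 (0.26 and 0.25) and Il15 (0.34 and 0.11) rose by less. Tnf, whose product is the central inflammatory cytokine, was lower in treated cells on both arrays, at -0.25 and -0.27 (mean -0.26 ± 0.08, adjusted p = 0.0364). For Il10, an anti-inflammatory cytokine gene, the mean was -0.16 ± 0.06 (adjusted p = 0.0654).

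NF-kB subunit and feedback genes divided: of 24 measured 6 rose, 2 fell and 16 did not pass, with a median of 0.08 that turned negative under median centring (-0.14). Nfkbiz, an inducible co-regulator of NF-kB, rose to 0.60 with L. acidophilus and 0.70 with B. clausii. Cd83 (0.37 and 0.65), a maturation marker that is a known NF-kB target, and Nfkb1 (0.64 and 0.38), which encodes the p105 and p50 subunit, rose too. Traf1, an adaptor of TNF receptors, fell to -0.55 and -0.47. Of 21 measured Toll-like receptor and adaptor genes 7 rose, 2 fell and 12 did not pass, with a median of 0.05 that turned negative under median centring and with the local backgrounds as deposited. Cd180, a Toll-like receptor homologue, stood highest at 0.87 and 0.75, and Ticam1 (TRIF, 0.53 and 0.48), Tlr1 (0.38 and 0.48) and Nod2 (0.43 and 0.38), an intracellular sensor of peptidoglycan, rose as well.

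Immediate early genes, which respond to stimuli without new protein synthesis, moved both ways. Of 31 measured 9 rose and 9 fell, with a median of 0.07 that turned negative in 3 alternatives, median centring among them. Gadd45g (0.43 with L. acidophilus and 0.94 with B. clausii) and Atf3 (0.58 and 0.76), which encodes a stress-induced repressor, rose. Arc fell to -1.12 and -0.70 (mean -0.91 ± 0.07, limma adjusted p = 0.000357), and Ier3, an NF-kB target involved in cell survival, to -0.71 and -1.06. With the processed signals Arc was lower still, at -1.42. Of 14 phosphatase and Sprouty genes, which brake MAP kinase signalling, 3 rose and 0 fell, a share near the 14.6% of all genes, with a median of 0.03 that turned to -0.07 under median centring. Spry1 (0.62 and 0.52) and Dusp1 (0.45 and 0.55) led them.

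**Figure D2:**
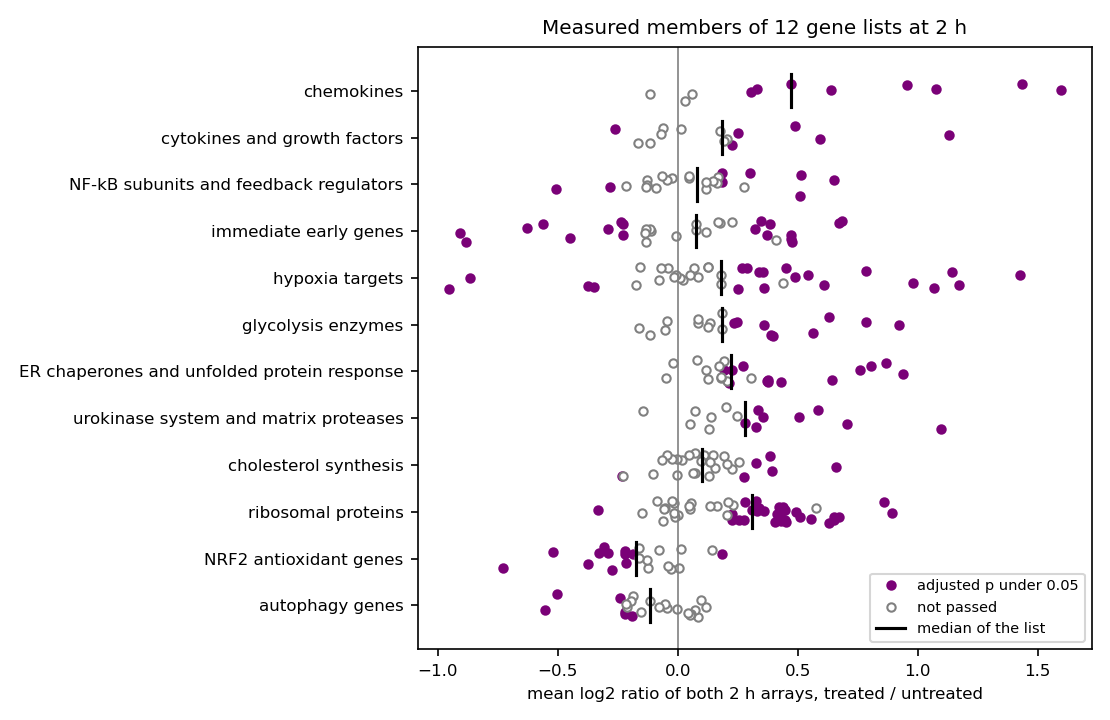
Mean log2 ratio of both 2 h arrays (x axis) for each measured member of 12 gene lists. Filled points passed the limma test at an adjusted p under 0.05, open points did not, and the black bar is the median of the list. Medians run from 0.47 (chemokines) to -0.17 (NRF2 antioxidant genes). With median centring those of the cytokine, NF-kB, immediate early, hypoxia and cholesterol lists fall below 0, where the median of all genes is -0.14.

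Hypoxia targets held several of the genes with the highest ratios. Adm, which encodes the vasodilator peptide adrenomedullin, went from signals of 1011 to 2730 with L. acidophilus and from 812.3 to 2169 with B. clausii. The ratios of 1.43 and 1.42 were nearly equal (mean 1.43 ± 0.10, 2.69-fold, limma adjusted p = 0.000289). At 1 h Adm read higher, at 1.968 with L. acidophilus and 2.095 with B. clausii. Ddit4, an inhibitor of the growth kinase mTORC1, gave 1.01 and 1.33 (1.17 ± 0.08), and Ankrd37, a HIF-1 target, 0.94 and 1.35 (1.14 ± 0.12). Both were somewhat higher on the B. clausii array. Slc2a1, the glucose transporter gene GLUT1, stood at 0.99 and 1.14 (1.07 ± 0.10, adjusted p = 0.000465). Bhlhe40, a transcriptional repressor gene that also belongs to the circadian clock, stood at 0.89 and 1.07, and at 0.56 on average with the local backgrounds as deposited (adjusted p = 0.107). The calls of Adm, Ddit4, Ankrd37 and Slc2a1 held in all 25 alternatives.

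Of 37 hypoxia targets measured 16 rose, 4 fell and 17 did not pass, with a median of 0.18 that became -0.03 under median centring. The other rises included Hk2 (0.79 with L. acidophilus and 0.78 with B. clausii), hexokinase 2, and Bnip3 (0.59 and 0.64), a mitophagy receptor, and Pfkfb3 (0.40 and 0.69), an activator of glycolysis. Selenbp1 and Selenbp2 fell, as did Hif1a (-0.46 and -0.28), which encodes the oxygen-regulated subunit of HIF-1, and Vhl (-0.37 and -0.33), which targets that subunit for degradation. Genes of the same pathway thus changed in opposite directions on both arrays. Among all 19 glycolysis genes 9 rose and 0 fell (6 and 2 under median centring), with a median of 0.19 that stayed above 0 in the 12 alternatives run for lists (lowest 0.03). Eno2, the enolase gene best known from neurons, stood at 0.82 and 1.02 (0.92 ± 0.15, limma adjusted p = 0.00381), and its 2 probes gave 0.92 and 0.94. Eno2 passed in 22 of 25 alternatives and did not without either 2 h array (0.85 and 1.00) or with the local backgrounds as deposited (0.61). Hk2, Pgam1 (0.58 and 0.67), phosphoglycerate mutase, and the lactate exporter gene Slc16a3 (0.54 and 0.59) came next.

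Among 24 measured genes of ER chaperones and the unfolded protein response, 13 rose, 11 missed the threshold and 0 fell, with a median of 0.22 that stayed above 0 in those 12 alternatives (lowest 0.01). Under median centring 5 rose and 2 fell, so the direction of single members depends on the scaling. In that setting 505 of all 14895 genes tested were higher and 4833 lower, with a median of -0.14. Hspa5, the ER chaperone BiP, rose from signals of 22510 to 44510 with L. acidophilus and of 24690 to 45940 with B. clausii. Its ratios of 0.98 and 0.90 gave a mean of 0.94 ± 0.09 (1.92-fold, limma adjusted p = 0.000571), and the call held in all 25 alternatives. Herpud1, a component of ER-associated degradation, rose to 0.83 and 0.91. Pdia6 (0.73 and 0.89), a disulfide isomerase, and Hsp90b1 (0.74 and 0.78), the chaperone GRP94, followed, and averaged over its probes Pdia6 stood at 0.41. In the integrated stress response list, which shares the factor CHOP with this pathway, 6 genes rose, 3 fell and 16 did not pass, with a median of -0.01 that turned above 0 with the processed signals. Ddit3, the gene of CHOP, rose to 0.44 and 0.58, and the serine synthesis gene Psph fell to -0.40 and -0.42.

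The bases before the start of 5 of the leading genes were picked because a motif of a pathway named above can be read in each. They are the 250 bases before the RefSeq start site (GRCm38.p6), read on the strand of the gene, with matches in capitals. For Cxcl2 (chr5:90903649-90903898, + strand) capitals mark GGGNNNNNCC, the general form of an NF-kB site. For Ddit4 (chr10:59951771-59952020, - strand), Ankrd37 (chr8:45999851-46000100, - strand) and Slc2a1 (chr4:119108495-119108744, + strand) they mark ACGTG and GCGTG, the 2 spellings of the core of a hypoxia response element. For Hspa5 (chr2:34771840-34772089, + strand) they mark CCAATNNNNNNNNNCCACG, the ER stress response element.
Cxcl2: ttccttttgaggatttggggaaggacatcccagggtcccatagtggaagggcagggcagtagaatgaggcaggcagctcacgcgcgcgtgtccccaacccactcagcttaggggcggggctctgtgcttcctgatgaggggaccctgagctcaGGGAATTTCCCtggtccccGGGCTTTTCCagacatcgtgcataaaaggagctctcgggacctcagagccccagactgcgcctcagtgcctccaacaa
Ddit4: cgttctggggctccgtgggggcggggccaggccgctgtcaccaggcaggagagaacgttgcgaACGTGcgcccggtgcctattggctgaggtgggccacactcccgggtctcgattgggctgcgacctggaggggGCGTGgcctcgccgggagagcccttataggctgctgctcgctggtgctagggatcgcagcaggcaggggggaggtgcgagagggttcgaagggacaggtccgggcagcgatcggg
Ankrd37: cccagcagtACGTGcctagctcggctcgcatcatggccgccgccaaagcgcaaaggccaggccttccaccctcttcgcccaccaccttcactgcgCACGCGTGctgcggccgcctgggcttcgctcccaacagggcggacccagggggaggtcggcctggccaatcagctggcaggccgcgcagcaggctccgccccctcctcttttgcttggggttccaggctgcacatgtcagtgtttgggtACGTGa
Slc2a1: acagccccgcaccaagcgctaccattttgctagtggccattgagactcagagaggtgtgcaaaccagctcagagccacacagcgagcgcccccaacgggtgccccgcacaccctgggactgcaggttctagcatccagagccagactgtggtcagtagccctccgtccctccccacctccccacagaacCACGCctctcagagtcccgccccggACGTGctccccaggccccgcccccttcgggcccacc
Hspa5: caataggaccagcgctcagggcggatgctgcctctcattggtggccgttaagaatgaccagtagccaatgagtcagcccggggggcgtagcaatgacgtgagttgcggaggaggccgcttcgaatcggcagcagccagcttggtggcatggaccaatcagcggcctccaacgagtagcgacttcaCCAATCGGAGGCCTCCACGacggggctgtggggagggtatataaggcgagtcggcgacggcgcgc

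On either strand GGGNNNNNCC occurred in 45.8% of 32851 RefSeq promoters of this length, ACGTG in 16.6%, GCGTG in 28.2% and the ER stress response element in 0.113%. Cxcl2 held GGGNNNNNCC 3 times, of which the matches on opposite strands at 97 to 88 and 96 to 87 bases before the start overlap, with the remaining one at 78 to 69. Its bases also hold GCGTG 2 times, left in lower case. Ankrd37 held each hypoxia core 2 times, Ddit4 and Slc2a1 each core 1 time, and the GCGTG of Ddit4 lies inside a GGGNNNNNCC match. GGGNNNNNCC also matched 5 times in Ddit4, 3 times in Ankrd37 and 1 time in Slc2a1, left in lower case where it does not overlap a core. The bases at 102 to 93 in Ddit4 and at 118 to 109 in Ankrd37 matched on both strands and were counted on each. In Ddit4 the matches at 232 to 223 and 227 to 218 overlap. Of the other leading genes in the table, Eno2, Ltb and Spp1 held neither hypoxia core and Adm held GCGTG. In Ankrd37 the GCGTG matches lie on opposite strands and overlap. Hspa5 held the ER stress response element at 65 to 47 bases before the start, and ACGTG at 155 to 151. Such a match describes the letters of the window and shows no binding.

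The urokinase and matrix protease list, whose genes let cells migrate through tissue, had 8 rises and 0 falls among 15 measured. Among all genes tested 14.6% rose. Under median centring the list had 5 rises and 0 falls, and its median of 0.28 stayed above 0 in the 12 alternatives. Plau, urokinase, stood at 0.94 with L. acidophilus and 1.26 with B. clausii (limma adjusted p = 0.000289), but its second probe gave 0.35 and the average over probes was 0.73. Adamts1 (0.63 and 0.53) and Adam8 (0.41 and 0.61) rose as well. Of 18 phagocytic and scavenger receptor genes 6 rose and 0 fell (median 0.18, and 2 rises and 1 fall under median centring), among them the Fc receptor gene Fcgr4 (0.47 and 0.72), the integrin gene Itgb2 (0.41 and 0.67), the Fc receptor gamma chain gene Fcer1g (0.43 and 0.63) and the scavenger receptor gene Msr1 (0.33 and 0.64). All 4 read higher on the B. clausii array.

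Spp1, which encodes the secreted protein osteopontin, went from 42700 to 86510 and from 39570 to 85220, ratios of 1.02 and 1.11 (1.06 ± 0.06, limma adjusted p = 0.000232). The nuclear RNA Neat1, the scaffold of paraspeckles, stood at 0.94 and 1.23 (1.08 ± 0.07). Ribosomal protein genes rose in 29 of 49 cases and fell in 1, against 14.6% higher among all genes tested. Under median centring 21 rose and 5 fell. Their median of 0.31 stayed above 0 in the 12 alternatives (lowest 0.04). Rplp1 (0.84 and 0.94) and Rpl41 (0.86 on both arrays) stood highest. In time these ratios hardly moved, with a median difference of -0.01 between 2 h and the mean of the other times.

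NRF2 antioxidant genes went the other way: 11 of 22 fell, 1 rose and 10 did not pass, against 12.4% lower among all genes tested. Their median was -0.17, below 0 in the 12 alternatives. Nfe2l2, the gene of NRF2 itself, stood at -0.59 and -0.87, although its average over 3 probes was -0.16. Keap1 (-0.35 and -0.69), its inhibitor, Gclc (-0.30 and -0.46), which makes glutathione, and Txnrd1 (-0.33 and -0.32), thioredoxin reductase, fell too. Of 23 autophagy genes 6 fell and 0 rose (median -0.12, below 0 in the 12 alternatives), led by Gabarap (-0.48 and -0.63) and Gabarapl1 (-0.45 and -0.55), whose products coat the autophagosome.

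Other lists held members of both directions. Their counts are to be read against the 14.6% higher and 12.4% lower of all genes, and a share near these is no result about the list. Of 30 measured interferon genes 7 rose and 2 fell (median 0.03, and -0.05 at the lowest, under median centring), with Irf8, a macrophage transcription factor gene, at 0.63 and 0.61 and Isg15, a ubiquitin-like protein gene, at -0.26 and -0.41. Of 37 lysosome and V-ATPase genes 8 rose and 5 fell (median 0.07, and -0.15 under median centring), with the protease gene Ctsb at 0.61 and 0.69 and the acid lipase gene Lipa at -0.46 and -0.72. Proteasome subunit genes had 4 rises and 8 falls among 32 (median -0.07), with Psmb7 at -0.78 and -0.61 and Psma2 at 0.60 and 0.41. Among 32 ribosome biogenesis genes 6 rose and 8 fell (median -0.08), and Nop56 (0.67 and 0.79) and Esf1 (-0.37 and -0.98) marked the extremes. Oxidative phosphorylation subunit genes had 7 rises and 9 falls among 45 (median -0.03). Of the 14 measured macrophage markers 7 rose and 2 fell (median 0.22), with the lysozyme gene Lyz2 at 0.47 and 0.69 and Spi1, the gene of the lineage factor PU.1, at -0.46 and -0.50.

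The lowest single genes were less extreme than the highest. Selenbp1, a selenium-binding protein gene, went from a signal of 1281 to 741.7 with L. acidophilus and from 1045 to 481.2 with B. clausii. Its ratios of -0.79 and -1.12 gave a mean of -0.95 ± 0.11 (1.94-fold lower, limma adjusted p = 0.0011). Enc1 gave -0.84 and -0.98 from its brightest probe, but its other probe had a mean of 0.22, and the average over both was -0.35. Cracdl (-1.01 and -0.80), with untreated signals of 231.3 and 182.6, stood at -1.74 with the processed signals. Ptgs2, which encodes the inducible cyclooxygenase COX-2, fell to -0.74 and -1.01, and its 2 probes gave means of -0.88 and -0.87. Selenbp2 (-0.71 and -1.02), the vascular growth factor gene Angpt2 (-0.74 and -0.99), the succinate receptor gene Sucnr1 (-0.75 and -0.94) and the kinase gene Dyrk3 (-0.79 and -0.89, with 1 array of 4 h missing) completed the clearest falls. Cenpl (-0.78 and -1.01, with 1 array of 6 h missing), Tent4a (-0.74 and -0.93), Sesn1 (-0.84 and -0.75), Ppig (-0.49 and -1.05) and Abhd4 (-0.79 and -0.73) also fell. With the local backgrounds as deposited Arc (-0.60), Cracdl (-0.53), Ptgs2 (-0.46) and Sucnr1 (-0.53) did not pass, nor did Selenbp1 (-0.83) and Ier3 (-0.49) without the 2 h B. clausii array and Ppig (adjusted p = 0.0668) without the bacterium term.

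On single arrays, without a test, 8 of the 12400 genes measured in both channels were at least 2-fold higher with L. acidophilus (0.0645%) and 2 lower (0.0161%). With B. clausii 20 were higher (0.161%) and 8 lower (0.0645%). With the processed signals these totals of 10 and 28 became 64 and 142, and with median centring the B. clausii array had 1 higher and 128 lower, so its direction depends on the scaling. Cxcl2 and Ccl2 alone were 3-fold higher, both with L. acidophilus. Arc and Cracdl were the 2 lower genes of that array.

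The mean 2 h ratio of each gene was compared with its mean over 1, 4 and 6 h. A gene that is alike at 1 and 2 h can also pass for this difference. A dye effect that is constant over arrays cancels in this difference. It was positive in 39 genes (0.262% of 14893) and negative in 91 (0.611%) at a limma adjusted p under 0.05, together 0.873%. In 82 of these 130 genes the 2 h sign was opposite to that of the other times' mean. A large gap between both values favours opposite signs, so this is no separate result on the 130 genes. The number rests on several arrays: it was 40 without the 1 h, 6 without the 2 h and 8 without the 4 h L. acidophilus array, and 49 and 13 without the 1 h and 4 h B. clausii arrays. Without the 2 h B. clausii array 0 passed in limma (1015 at an unadjusted p under 0.05), and with the processed signals also 0 (2012 unadjusted), with Zbtb26 at -1.16, Armc7 at -0.96 and Ddit3 at 0.96 there.

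The positive side held genes that were high at 1 and 2 h and low later. At 1, 2, 4 and 6 h Herpud1 read 1.00, 0.83, -0.41 and -1.18 on the L. acidophilus arrays and 1.13, 0.91, -0.24 and -1.19 on the B. clausii arrays. The 2 h values lay below those of 1 h and well above the later ones on both arrays, and the difference was 1.02 ± 0.07 (limma adjusted p = 0.00107). Ccl4 followed the same course, with 1.26, 0.88, -0.84 and -0.64 on the L. acidophilus arrays and 1.30, 1.03, -0.78 and -0.52 on those of B. clausii (0.99 ± 0.06, adjusted p = 0.00107). Nfil3, a transcription factor gene of immune cells and the clock, differed by 0.81 ± 0.08, Ddit3 by 0.73 ± 0.06 and Ccl3 by 0.65 ± 0.12 (adjusted p = 0.0496). Bbc3, the apoptosis gene PUMA, differed by 0.56 ± 0.07. Without both 6 h arrays Bbc3 differed by 0.15 (limma adjusted p = 0.472), so its difference rested largely on 6 h. Ccl3 passed in 8 of 24 alternatives, Bbc3 in 14, Nfil3 and Ddit3 in 16, and Herpud1 and Ccl4 in 19.

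Rasgef1b, also on the positive side, stood higher at 2 h than at 1 h with both bacteria, at 0.56 and 0.13 against -0.36 and -0.57 (difference from the other times 0.60 ± 0.10, limma adjusted p = 0.0406, passed in 9 of 24 alternatives). At 2 h itself 5 of 28 cholesterol synthesis genes rose and 1 fell, a share near the 14.6% higher of all genes (median 0.10, and -0.15 under median centring), led by Sqle (0.66 and 0.65), squalene epoxidase. Against the other times 3 of the 28 were higher and 0 lower, with a median difference of 0.18 against 0.01 over all genes. Among them were Fdft1 (0.37, adjusted p = 0.0462), squalene synthase, and Msmo1 (0.56, adjusted p = 0.0145), a sterol oxidase gene chosen after its values were seen.

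**Figure D3:**
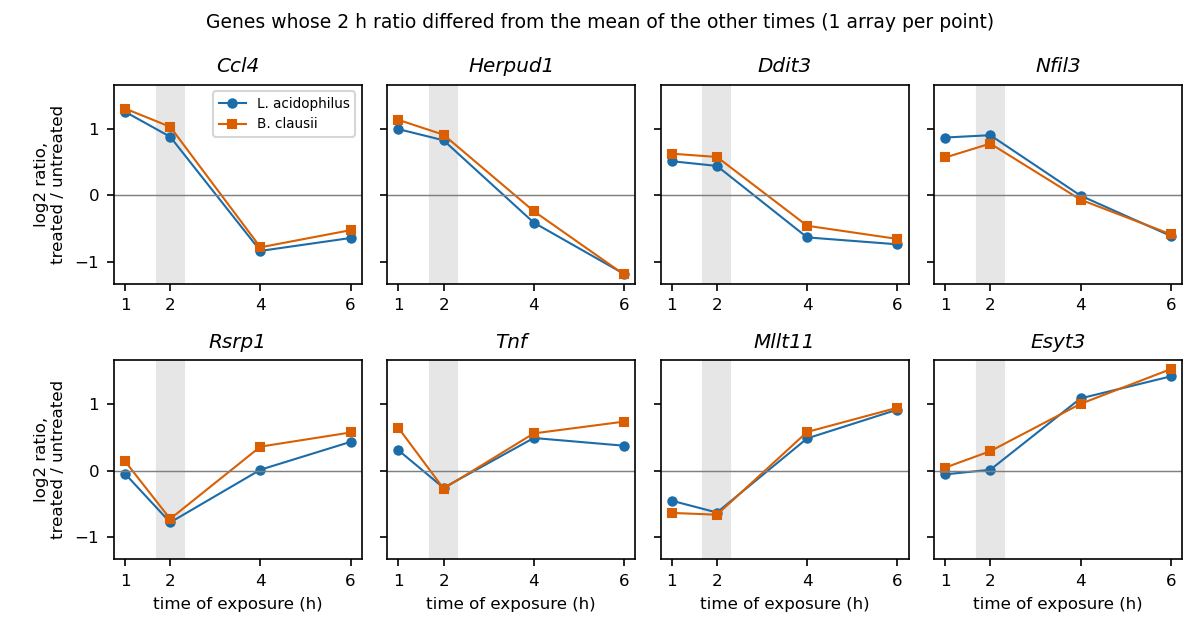
Log2 ratio of treated to untreated cells (y axis) against time of exposure in hours (x axis) for 8 genes, with 1 array per point, circles for L. acidophilus and squares for B. clausii. The 2 h column is shaded. Ccl4, Herpud1, Ddit3 and Nfil3 are above 0 at 2 h and below it at 6 h, while Rsrp1 and Tnf are below 0 at 2 h and, apart from Rsrp1 at 1 h with L. acidophilus (-0.04), above 0 at the other times.

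The negative side held genes with a dip at 2 h. Rsrp1, an arginine- and serine-rich protein gene, stood at -0.77 and -0.72 at 2 h and between -0.04 and 0.58 on the 6 other arrays (difference -0.997 ± 0.07, limma adjusted p = 0.00193). Tnf stood at -0.25 and -0.27 at 2 h, against 0.31, 0.50 and 0.38 (L. acidophilus) and 0.65, 0.56 and 0.74 (B. clausii) at 1, 4 and 6 h. Both 2 h values lay below all others, and the difference was -0.78 ± 0.09 (adjusted p = 0.0145). The SD over the 10 spots of the Tnf probe was 0.11 and 0.10 on the 2 h arrays. Zbtb26, a zinc finger gene, stood at -0.53 and -0.34 at 2 h and between 0.07 and 0.66 elsewhere (-0.72 ± 0.10, adjusted p = 0.0227). Tnf passed in 16, Rsrp1 in 20 and Zbtb26 in 12 of 24 alternatives.

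In other genes of the negative side 2 h resembled 1 h and lay below 4 and 6 h. Mllt11 stood at -0.63 and -0.66 at 2 h, -0.45 and -0.63 at 1 h, and 0.49 to 0.95 later (difference -0.95 ± 0.07, limma adjusted p = 0.00199). Armc7 (-0.70 ± 0.07), Rasa4 (-0.70 ± 0.09), a RAS-inhibiting protein gene, Tmem268 (-0.69 ± 0.09) and Esyt3 (-0.68 ± 0.08) differed likewise. Esyt3 was near 0 at 2 h (0.02 and 0.30) and rose to 1.01 to 1.53 later, so a negative difference need not mean a fall at 2 h.

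Both 2 h ratios lay above all 6 other arrays in 406 of 14893 genes (2.73%), of which 11 were among the 39 that passed on the positive side. They lay below in 446 (2.99%), with 51 among the 91 on the negative side. Fos, the AP-1 subunit gene, which was named after its values were seen, was in the second group, at -0.67 and -0.59 (difference -0.63 ± 0.07, limma adjusted p = 0.0145). Ptgs2 was there too (difference -0.60, adjusted p = 0.0287).

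Because each ratio holds both channels, the channel levels were read separately, after loess and scaling of the mean brightness between arrays, and they are open to dye bias. In 128 of the 130 genes (98.5%) the treated channel moved further between 2 h and the other times than the untreated channel, against 64.4% of all genes. The treated level of Herpud1 was 13.31, 13.19, 12.14 and 11.04 at 1, 2, 4 and 6 h on the log2 scale, while the untreated level stayed between 12.22 and 12.46. Tnf in treated cells read 12.02 at 2 h and 12.76 to 12.85 at the other times, and in untreated cells 12.23 to 12.37. Ccl3 differed from these: its untreated level rose from 10.71 at 1 h through 11.23 at 2 h to 12.15 at 6 h, a range of 1.45, while the treated level ranged over 0.45. The late decline of the Ccl3 ratio thus went with a rise in the untreated channel. Hspa5, which is not among the 130 genes, also had a moving untreated level, at 13.25, 14.47, 14.82 and 15.15 at 1, 2, 4 and 6 h. Its treated level was 14.08, 15.41, 15.61 and 15.19.

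**Figure D4:**
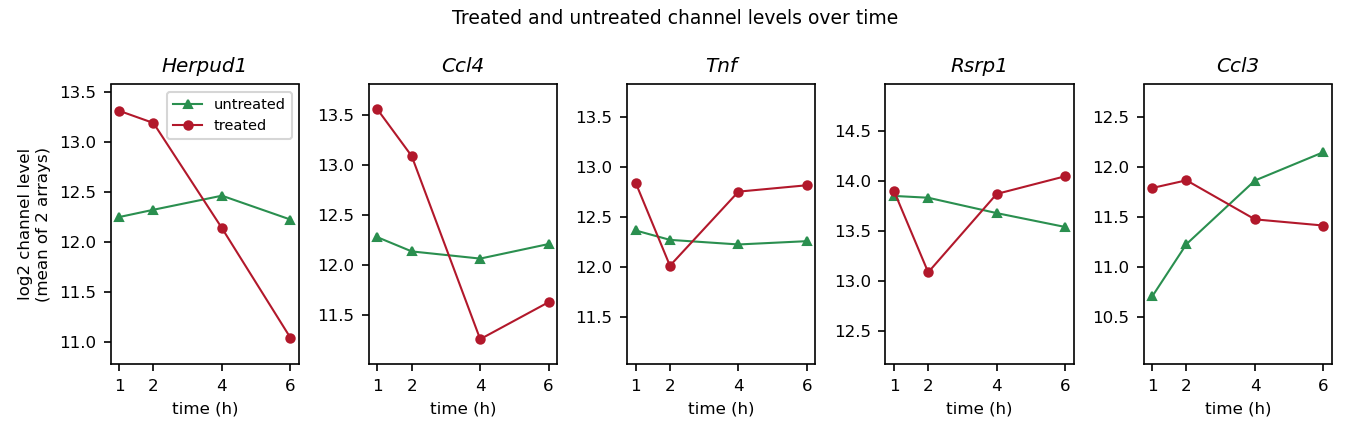
Log2 channel level (y axis), the mean of the L. acidophilus and B. clausii arrays, against time in hours (x axis) for 5 genes, with triangles for untreated (Cy3) and circles for treated (Cy5) cells and the same span of the axis in every panel. Levels are compared within a gene only. In Herpud1, Ccl4, Tnf and Rsrp1 the treated level moves more than the untreated level, and in Ccl3 the untreated level covers 1.45 and the treated level 0.45.

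Against 1 h alone no gene passed in limma (0% of 14895, smallest adjusted p 0.129), although 2303 genes had an unadjusted p under 0.05. Without the 1 h L. acidophilus array 40 passed, without the 1 h B. clausii array 2, and with median centring 93. The genes with the smallest p are given as values. Gadd45g moved from -0.26 at 1 h to 0.43 at 2 h with L. acidophilus and from 0.11 to 0.94 with B. clausii (difference 0.76 ± 0.12, adjusted p = 0.149). Id2, an inhibitor of helix-loop-helix factors, went from -0.05 to 0.46 and from -0.08 to 0.58. In the other direction Mfsd2a, a lipid transporter gene, moved from 0.91 to 0.32 and from 0.90 to 0.36, and Rsrp1 from -0.04 to -0.77 and from 0.14 to -0.72 (difference -0.80 ± 0.09, adjusted p = 0.129). These shifts had the same sign on both slides but did not pass after adjustment over all genes. Leading genes of the 2 h mean were already raised at 1 h. Cxcl2 (1 h mean 2.21), Adm (2.03), Ankrd37 (1.45), Slc2a1 (1.295), Plau, Spp1 and Ccl4 had higher means at 1 h than at 2 h. Ccl2 (1.42), Ltb, Ccl7, Bhlhe40 (0.78) and Hspa5 had lower means at 1 h, and Ddit4 (1.18) and Neat1 (1.08) were alike at both times.

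Against 4 h 61 genes (0.41% of 14894) were higher at 2 h and 153 (1.03%) lower, together 1.44%, in limma. The count fell to 11 without the 2 h and 15 without the 4 h L. acidophilus array, to 6 and 18 without those of B. clausii, and to 0 with the processed signals (1993 at an unadjusted p under 0.05). Chemokine and stress genes headed the higher side. Cxcl2 went from 1.84 to -0.06 between 2 and 4 h on the L. acidophilus slide and from 1.03 to -0.79 on the B. clausii slide, a drop of like size with each bacterium (difference 1.86 ± 0.26, adjusted p = 0.0176). Ccl4 differed by 1.76 ± 0.08 (adjusted p = 7.05e-05) and Ccl3 by 1.03 ± 0.15. Chac1, a glutathione-degrading enzyme gene under CHOP, went from 0.43 to -1.44 and from 0.18 to -1.11 (difference 1.58 ± 0.27, adjusted p = 0.0312), and its 2 h mean itself did not pass (0.31 ± 0.20). Herpud1 (1.19 ± 0.08), the pseudokinase gene Trib1 (1.11 ± 0.12), Adm (1.06 ± 0.14) and Ddit3 (1.05 ± 0.08) were higher at 2 h as well.

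On the lower side against 4 h stood Mllt11 (-1.18 ± 0.09), the chromatin reader gene Phf13 (-1.06 ± 0.11), Nr1d2 (-1.02 ± 0.08), which encodes the clock repressor REV-ERB beta, and Enc1 (-1.02 ± 0.08, limma adjusted p = 0.00152). Phf13 stood at -0.59 and -0.58 at 2 h and at 0.43 and 0.53 at 4 h, so its groups of 2 arrays lay on opposite sides of 0. Nr1d2 did so too, with -0.30 and -0.47 against 0.79 and 0.49. Rsrp1 (-0.94 ± 0.09), the ubiquitin ligase gene G2e3 (-0.93 ± 0.08), Rasa4 (-0.92 ± 0.11) and Tmem268 (-0.90 ± 0.11) completed the named genes. The brightest probe of G2e3 had a 2 h mean of -0.67, and its 2 other probes means of -0.10 and -0.17. The other probe of Enc1 had a 2 h mean of 0.22, and averaged over probes Enc1 differed by -0.50 and G2e3 by -0.48 from 4 h.

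The bacteria were set against each other at 2 h by the difference of single ratios, L. acidophilus minus B. clausii, without a test. Of 12400 genes 1 was at least 2-fold higher (0.00806%) and 1 at least 2-fold lower (0.00806%) with L. acidophilus, and with the processed signals 42 passed that limit in all. Zdhhc1, a palmitoyltransferase gene, read 0.33 with L. acidophilus and -0.72 with B. clausii, a difference of 1.05. Dok2, an adaptor that restrains receptor signalling, read 0.16 and 1.23 (difference -1.06). Both were near each other at the other times: Zdhhc1 read 0.49 and 0.54 at 1 h and 0.08 and 0.12 at 4 h, and Dok2 0.26 and 0.30 at 1 h and -0.02 on both arrays at 4 h. The difference at 2 h in these genes therefore rests on 1 B. clausii array.

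Cxcl2 (difference 0.81) and Rgs1 (1.16 and 0.35, difference 0.81), a regulator of chemokine receptor signalling, were higher with L. acidophilus. Sltm (0.84), Ccar1 (0.84), Copg2 (0.83) and Glg1 (0.79) were lower with B. clausii at 2 h and at 1 h, Sltm at -0.22 and -1.06 and Ccar1 at -0.30 and -1.14 at 2 h. Other probes of these genes read closer together: 1 of Ccar1 gave 0.36 and 0.05, 1 of Sltm 0.11 and -0.15, 1 of Copg2 -0.02 and -0.34, and that of Glg1 -0.14 and -0.33. Jpt1 (difference 0.90) read -0.07 and -0.97, with an untreated signal of 1768 on the L. acidophilus and 247.6 on the B. clausii array. In the other direction Lypla1 (difference -0.85) read -0.11 and 0.74 from its brightest probe, but -0.11 and -0.06, and -0.15 and -0.29, from its other 2. Tnip1 (-0.37 and 0.46), an inhibitor of NF-kB signalling, Klf2 (0.05 and 0.77), Tmem67 (-0.69 and 0.11), Txnip (-0.35 and 0.21), Eapp (-0.02 and 0.54) and Taf1c (0.04 and 0.69, with 1 array of 1 h missing) followed. The second probe of Klf2 read 0.09 and 0.15, and that of Txnip -0.17 and -0.03, without such a difference. Over all genes the median difference was 0.01.

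**Figure D5:**
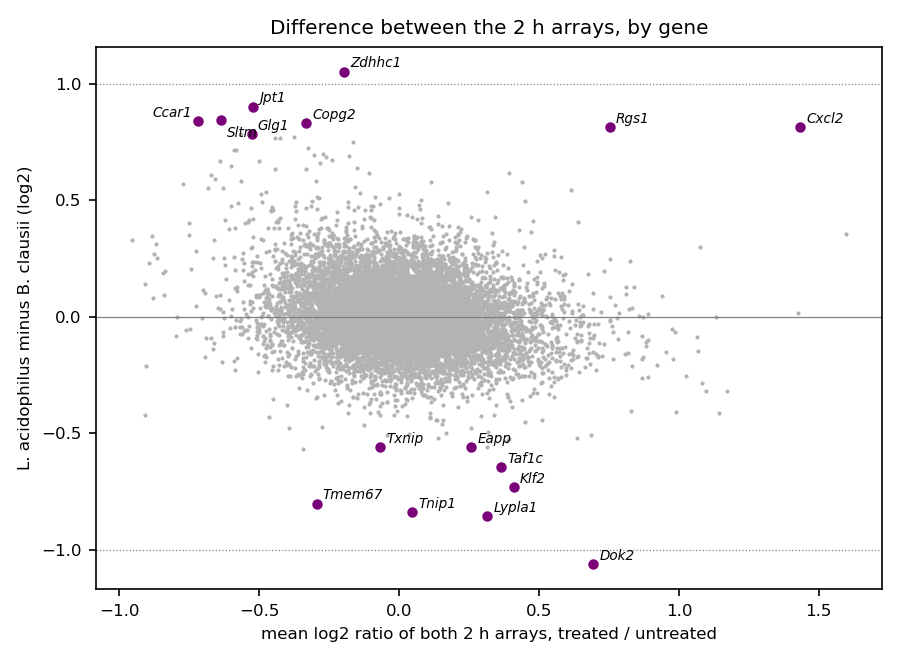
Difference of the 2 h log2 ratios, L. acidophilus minus B. clausii (y axis), against their mean (x axis), for the 12400 genes measured in both channels of both arrays. Purple points are the 8 largest differences in each direction and dotted lines mark 2-fold. Zdhhc1 (1.05) and Dok2 (-1.06) alone lie past 2-fold.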

How the data were processed

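The members and lists were chosen with earlier results of these data known. The deposited intensity values, per the file headers, are foreground means and local background medians of each spot from Agilent Feature Extraction (10.7.3.1 in the headers, 10.5.1.1 in the submitters' processing notes). Deposited with them were processed intensity values, log10 ratios of red over green and 0 or 1 flags. The deposited series matrix repeats those ratios (r of 1, with 26.8% and 25.8% exactly 0 at 2 h), which fixed its scale and direction. The processed signals and the matrix served as alternatives.

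Backgrounds over 3 times the array's median that the software had marked (3 and 25 spots at 2 h) were set to the median and their spots left out. Normexp (offset 50) and loess in limma 3.58.1 (R 4.3.3) gave log2 ratios. Spots of a probe were averaged, probes well above background in a channel on at least 2 arrays kept (21591), and each gene read from its brightest probe (4927 of 14936 genes had several). Names came from RefSeq, GRCm38.p6. Time and bacterium were fitted to all 8 arrays with lmFit and eBayes (adjusted p under 0.05), with code tested on simulated data.

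Named were the 15 highest and lowest means among genes that passed with the same sign on both 2 h arrays. Also named were the 8 of each difference (5 where none passed), the 4 largest members of a list, and any chemokine, cytokine or hypoxia gene. Alternatives were other signals, background corrections, scalings, filters, probe averaging, models, thresholds and left-out arrays. With 1 array per condition, p-values measure only the spread between these arrays. A few genes that met the naming rule are not reported here.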

Additional observations from a re-analysis of the deposited data

Results flagged for a closer look

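The 2 h response differed from the mean of 1, 4 and 6 h, by the limma test of that difference, in Herpud1 (1.02), Ccl4 (0.99), Nfil3 (0.81), Ddit3 (0.73), Ccl3 (0.65), Rasgef1b (0.60) and Bbc3 (0.56), which were higher at 2 h. It was lower at 2 h in Rsrp1 (-0.997), Mllt11 (-0.95), Tnf (-0.78), Zbtb26 (-0.72), Armc7 (-0.70), Rasa4 (-0.70), Tmem268 (-0.69) and Esyt3 (-0.68). All values are differences of log2 ratios. Position on the slide coincides with time, and its part in these differences was not tested.

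By the limma test of 2 h against 4 h, the ratio was higher at 2 h in Cxcl2 (1.86), Ccl4 (1.76), Chac1 (1.58), Herpud1 (1.19), Trib1 (1.11), Adm (1.06), Ddit3 (1.05) and Ccl3 (1.03). It was lower at 2 h in Mllt11 (-1.18), Phf13 (-1.06), Nr1d2 (-1.02), Enc1 (-1.02), Rsrp1 (-0.94), G2e3 (-0.93), Rasa4 (-0.92) and Tmem268 (-0.90).

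At 2 h the ratios of the bacteria had opposite signs in 7 of the genes with the largest differences, with L. acidophilus minus B. clausii of 1.05 in Zdhhc1, 0.83 in Copg2, -0.85 in Lypla1, -0.84 in Tnip1, -0.80 in Tmem67, -0.56 in Eapp and -0.56 in Txnip. Other probes of Txnip (-0.17 and -0.03), Copg2 (-0.02 and -0.34) and Lypla1 (-0.11 and -0.06, and -0.15 and -0.29) had the same sign on both arrays. With L. acidophilus Eapp (-0.02), Copg2 (0.08) and Lypla1 (-0.11) lay near 0, as did Tmem67 (0.11) with B. clausii. The median SD of replicate spots was 0.10. Each difference rests on 1 array per bacterium and was not tested.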

How the results depend on the processing

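None of the genes named for a mean or a difference, for which alternatives were run gene by gene, changed sign, and the causes of the changes in number below were not tested. Counted over genes and alternatives, 1587 values kept their side of the threshold or moved by less than the spot SD, 269 fell short of the threshold, 5 newly passed it and 53 untested ones moved by more than the spot SD. The 4020 genes of the 2 h mean became 2598 with a normexp offset of 0, 850 with local backgrounds as deposited and 2452 without a bacterium term. Median centring gave 505 higher and 4833 lower. Leaving out 1 array gave 391 to 4716.

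The 130 genes that differed between 2 h and the mean of the other times became 0 with processed signals. There 2012 had an unadjusted p under 0.05 in limma. They also became 0 with series matrix values (2014 unadjusted) and 0 with offset 0 (1752). They became 10 with backgrounds as deposited, 36 with median centring, 206 with scaling between arrays, 40 without a filter, 223 with both channels detected throughout, 29 without the bacterium term and 291 at an adjusted p under 0.1. Without both 1 h arrays they were 1147, without both 4 h arrays 4, without both 6 h arrays 3, and without 1 array 0 to 145. Against 1 h, 0 genes became 93 with median centring, which moved the median of all genes to 0.13 there, and 0 to 40 without 1 array. Against 4 h, 214 became 0 with processed signals (1993 unadjusted), 0 with matrix values (1992), 1 with offset 0, 4 as deposited, 103 with median centring, 364 with scaling, 124 without a filter, 343 with both channels, 79 without the bacterium term, 456 at 0.1, and 6 to 267 without 1 array. Where a left-out array leaves a time with 1, that array is assumed to vary like the others.

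Past 2-fold, the 10 genes with L. acidophilus became 64 (processed), 63 (matrix), 29 (offset 0) and 2 (3-fold). The 28 with B. clausii became 142, 140, 69 and 0, with 10 as deposited and 129 (1 higher, 128 lower) with median centring. The 2 that differed between bacteria became 42, 42, 10 and 0, with 5 as deposited and 14 with median centring. The bacterium term pairs the times within a bacterium, and the labels carry no replicate numbers for any other pairing. The mean of 3 times allows no comparison of 2 times alone. Genes not well above background in a channel have only bounds.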

Other observations

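Genes of zinc finger proteins and host genes of small nucleolar RNAs appear among those lower at 2 h than the mean of the other times. Both groups were chosen after their values were seen, from symbols alone. Of 12481 genes tested with a usable symbol, 323 (2.59%) begin with Zfp, Zbtb, Zkscan or Zscan, most of them symbols of zinc finger protein genes and a few of antisense genes or pseudogenes. Of the 73 such genes that were lower at 2 h in limma, 13 (17.8%) carry one of these names, and of the 36 that were higher, 0. Their median difference was -0.09, against 0.01 over all genes, and that of the genes kept under 10 other signals, scalings and filters lay between -0.12 and -0.07 (248 genes with the strictest filter). Zbtb26 (-0.72), Zfp84 (-0.53), Zfp322a (-0.51) and Zscan29 (-0.50) had the largest differences that passed. Zfp84 stood at -0.36 with L. acidophilus and -0.37 with B. clausii at 2 h, and Zscan29 at -0.37 and -0.55. Their means at 1, 4 and 6 h were -0.215, 0.37 and 0.33 for Zfp84 and -0.44, 0.26 and 0.32 for Zscan29. Zscan29 at 2 h (mean -0.46) thus lay near its 1 h value. So did Zbtb1 (-0.62 at 2 h and -0.61 at 1 h), Zfp652 (-0.06 and -0.05), Zfp830 (-0.20 and -0.19) and Zfp958 (-0.04 and -0.10). Zbtb26 (0.08 at 1 h), Zfp276 (-0.10 at 2 h and 0.24 at 1 h) and Zfp329 (0.40 and 0.785) were lower at 2 h than at 1 h. Zfp84, Zfp322a, Zfp46, Zfp655 and Zfp866 were so by less. Zfp329 was higher in treated cells at 2 h (limma adjusted p = 0.00443).

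The introns of small nucleolar RNA host genes carry RNAs that guide modification of ribosomal RNA. Of 11 measured (Snhg genes, Gas5, Zfas1 and Taf1d) 3 were lower at 2 h than the mean of the other times and 0 higher. The 3 were Snhg3 (-0.64 ± 0.09, limma adjusted p = 0.0259), Taf1d (-0.64 ± 0.10, adjusted p = 0.0325) and Zfas1 (-0.58 ± 0.08, adjusted p = 0.0203). The median of the 11 was -0.38, and that of the 11 or 12 measured under the same 10 settings ranged from -0.45 to -0.34. Snhg3 stood at -0.37 with L. acidophilus and -0.15 with B. clausii at 2 h, and on average at 0.30, 0.36 and 0.48 at 1, 4 and 6 h. Zfas1 stood at -0.43 and -0.33 at 2 h, and at -0.22, 0.27 and 0.54 at the other times. Gas5, the best known of these genes, did not pass for this difference (-0.19 ± 0.09, limma adjusted p = 0.391). Its 2 h ratios of 0.52 and 0.50 passed as higher in treated cells (adjusted p = 0.00234). Snhg20 (mean 0.55) and Snhg17 (0.34) also passed as higher in treated cells at 2 h, while Snhg3 and Zfas1 passed as lower.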
